A study of Mus musculus with 20 samples.

Results

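The calcium/calmodulin-dependent protein kinases were followed through 20 mouse brain arrays by taking every probe set annotated to 9 genes: the kinase kinases Camkk1 and Camkk2, the Camk1 and Camk1d genes of the CaM kinase I group, Camk4, and the 4 CaM kinase II subunit genes Camk2a, Camk2b, Camk2d and Camk2g. The annotation gave 16 probe sets for 8 of the genes, out of 12393 genes named on the array and 22626 probe sets that are not array controls. No probe set carried the name Camkk1, so that kinase was not analysed here. All 16 passed the filter on dim probe sets, which kept 15627. It required a signal above the 40th percentile of an array on at least 2 arrays. This limit had a median of 681 intensity units. It was higher on every knock-in array (682 to 775 units) than on any wild-type array (606 to 680). The Camk2a probe set passed the filter through its 10 forebrain arrays alone, and the Camk4 probe set 1452572_at exceeded the limit on 6 arrays of 20.

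The study measured total RNA of knock-in and wild-type mice in cerebellum and forebrain at 4 and 11 weeks, with 3 arrays in each group at 4 weeks and 2 at 11 weeks, 8 groups in all. The labels name neither the knocked-in allele nor the strain, sex or number of mice. They disagree on region for 7 of the 10 forebrain arrays, which carry a word for cerebellum in a title or source field, and the later age is 12 weeks in the titles. Arrays were grouped by the region code of their titles. The 10 arrays grouped as cerebellum had 38010 to 55244 intensity units of Pcp2, a Purkinje cell gene, against at most 579 in the forebrain group, and 35953 to 46884 units of Gabra6, a granule cell gene, against 18.9 to 364. Bcl11b, a forebrain projection neuron gene, ran the other way, at 3472 to 6182 units in forebrain and 13.8 to 31.9 in cerebellum. Nothing in the labels says that arrays of a group come from separate mice, so a p-value here reflects how far the arrays at hand scatter, and that scatter may be technical. Their small number limits the precision.

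Calcium entering a neuron binds calmodulin, and the complex switches on these kinases. CaMKK2 phosphorylates and activates CaM kinase I and CaM kinase IV, forming a cascade, and also activates the AMP-activated protein kinase. CaM kinase IV is largely nuclear, phosphorylates the transcription factor CREB and is abundant in cerebellar granule neurons. CaM kinase II does not need a kinase kinase. It is a multi-subunit enzyme of synapses, required for forms of synaptic plasticity, with the alpha subunit typical of forebrain excitatory neurons and the beta, gamma and delta subunits more widely spread.

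The sequence around the start site is shown for Camkk2, with 1 of 3 probe sets called lower in knock-in forebrain, for Camk1d, with both called lower, and for Camk2b, whose probe set did not pass the test. For Camk1d the first of 2 starts in the table is shown. The sequences are RefSeq's, on build GRCm38.p6, from 250 bases before to 50 bases after the annotated start. They run 5′ to 3′ on the gene's strand, with every GC box (GGGCGG) and CCAAT box (CCAAT), on either strand, in capitals.
Camkk2, chr5:122779361-122779660, minus strand: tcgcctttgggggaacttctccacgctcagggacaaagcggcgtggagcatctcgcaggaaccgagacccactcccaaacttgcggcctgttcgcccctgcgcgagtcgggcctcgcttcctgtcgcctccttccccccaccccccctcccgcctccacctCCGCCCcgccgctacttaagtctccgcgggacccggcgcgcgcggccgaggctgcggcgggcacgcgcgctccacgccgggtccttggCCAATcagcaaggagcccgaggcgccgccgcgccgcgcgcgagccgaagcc
Camk1d, chr2:5714713-5715012, minus strand: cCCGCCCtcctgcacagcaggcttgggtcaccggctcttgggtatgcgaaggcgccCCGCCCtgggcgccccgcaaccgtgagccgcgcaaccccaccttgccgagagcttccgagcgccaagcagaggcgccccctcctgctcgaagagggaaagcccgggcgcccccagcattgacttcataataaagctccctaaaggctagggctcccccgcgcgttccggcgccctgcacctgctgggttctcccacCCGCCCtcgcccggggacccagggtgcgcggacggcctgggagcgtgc
Camk2b, chr11:6065699-6065998, minus strand: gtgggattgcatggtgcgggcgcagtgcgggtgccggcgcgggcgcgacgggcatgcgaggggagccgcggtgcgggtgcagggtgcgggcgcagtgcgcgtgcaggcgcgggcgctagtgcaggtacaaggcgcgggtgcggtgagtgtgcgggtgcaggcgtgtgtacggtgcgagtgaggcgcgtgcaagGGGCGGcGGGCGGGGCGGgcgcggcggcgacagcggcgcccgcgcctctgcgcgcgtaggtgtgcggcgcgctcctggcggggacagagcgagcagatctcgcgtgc
The Camkk2 sequence was 73.3% G and C, that of Camk1d 71.3% and that of Camk2b 77.3%, against a median of 52.7% over 32851 promoters of the same length. The other Camk1d start, chr2:5675997-5676296 on the minus strand, had 48.7% G and C, with 1 GC box and 1 CCAAT box. Camkk2 had 1 GC box and 1 CCAAT box, while Camk2b and the Camk1d start shown had 3 GC boxes each, those of Camk2b lying close together with an overlap. A GC box occurred in 35.7% of the 32851 promoters and a CCAAT box in 37.4%. The cAMP response element in its short form TGACG, present in 20.8%, was not found in the 3 windows shown or the other Camk1d window, nor was the full element TGACGTCA, present in 1.79%. These are letter matches on both strands and describe the windows alone.

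Camkk2 was lower in knock-in forebrain by its brightest probe set, 1424474_a_at. At 4 weeks the wild-type forebrain arrays read 14693, 13679 and 16049 intensity units and the knock-in arrays 7398, 9314 and 9007. At 11 weeks the wild-type arrays read 14507 and 10814 units and the knock-in arrays 6424 and 6223. Every knock-in forebrain array lay below every wild-type forebrain array. Knock-in values below wild type without overlap at both forebrain ages occurred for 4 members, this probe set and 1 each of Camk1d, Camk2a and Camk2g, and in 6.29% of the kept probe sets. The reverse occurred for 1 member, a Camk4 probe set, and in 8.47%. Differences are given as knock-in minus wild type of log2(intensity + 16), with the standard error of a limma fit of all 20 arrays and Benjamini-Hochberg adjustment over the 15627 kept probe sets, and a probe set was called at an adjusted p under 0.05. On this scale Camkk2 fell by 0.79 ± 0.13 at 4 weeks (adjusted p = 0.00506) and by 0.98 ± 0.16 at 11 weeks (adjusted p = 0.0117). The mean of both ages, a 1.85-fold lower level, fell by 0.89 ± 0.10 (adjusted p = 0.00021). The calls at 4 weeks and for the mean of ages held without any 1 array. The call at 11 weeks was lost without knock-in forebrain replicate 1 (adjusted p = 0.0513), knock-in replicate 2 (0.102) or wild-type replicate 1 (0.097) of that age, and with forebrain arrays alone (0.0737).

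In cerebellum the same Camkk2 probe set was close between genotypes. Knock-in arrays read 14483, 12825 and 14599 units at 4 weeks and 9553 and 9805 at 11 weeks. Wild-type arrays read 16840, 14372 and 13730 units at 4 weeks and 12428 and 10500 at 11 weeks. The groups overlapped at 4 weeks and did not at 11 weeks. The difference over both ages was -0.17 ± 0.10, with a 95% confidence interval of -0.39 to 0.05 (adjusted p = 0.364). The forebrain difference exceeded the cerebellar one by -0.72 ± 0.15, which missed the threshold (adjusted p = 0.0557). The same difference passed with the filter placed at the array median (adjusted p = 0.0401), with 1 probe set per gene (0.0392) and with same-numbered arrays treated as coming from 1 animal (0.041), a link the labels do not make. It also passed without wild-type cerebellar 4-week replicate 1 (0.043) or wild-type forebrain 11-week replicate 2 (0.0283). It had an adjusted p of 0.171 with the replicate number as a block of the genotypes, 0.107 with no filter and up to 0.147 without another array.

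The other Camkk2 probe sets gave smaller forebrain differences. In forebrain at 4 weeks probe set 1424475_at averaged 4362 ± 1140 units in the knock-in arrays and 3970 ± 970 in the wild-type arrays (SD, n = 3 each), so the groups overlapped. At 11 weeks its knock-in arrays read 2677 and 2983 units and its wild-type arrays 5155 and 5759, with no overlap. Its difference was 0.13 ± 0.20 at 4 weeks, -0.94 ± 0.25 at 11 weeks (adjusted p = 0.0907) and -0.41 ± 0.16 over both ages (adjusted p = 0.101). The difference over both ages passed with the replicate number as a block (adjusted p = 0.0423) and without wild-type forebrain 4-week replicate 1 (-0.51, adjusted p = 0.0315), and that at 11 weeks without knock-in forebrain 4-week replicate 1 (0.0491). The change of its genotype difference between the ages, -1.07 ± 0.32, did not pass either (adjusted p = 0.62). Probe set 1424476_at, the dimmest, averaged 2036 ± 284 units in knock-in arrays of that group and 2687 ± 666 in wild-type ones, and its difference over both ages was -0.53 ± 0.22 (adjusted p = 0.111). All 3 Camkk2 probe sets were lower without overlap in knock-in forebrain at 11 weeks, as were 21.1% of the kept probe sets.

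The genotype differences of the 3 Camkk2 probe sets were also compared pair by pair within each region, in 6 two-sided exact permutation tests over arrays. In forebrain the difference of 1424474_a_at was more negative than that of 1424475_at by 0.48 (exact p = 0.0667, adjusted p = 0.3). It was more negative than that of 1424476_at by 0.35 (exact p = 0.2, adjusted p = 0.4). The remaining forebrain pair differed by 0.13 (exact p = 0.667). In cerebellum the 3 differences were -0.22, -0.28 and -0.06, with exact p between 0.1 and 0.817. With all arrays the smallest possible exact p was 0.0167, so 1 differing pair alone could not pass adjustment over the 6 tests. The tests therefore cannot settle whether the probe sets differ from each other. With wild-type forebrain 11-week replicate 2 left out, the first of these pairs differed by -0.63 (unadjusted exact p = 0.0167, the smallest possible there). A probe set name ending in _a_at marks probes that match several transcripts of the gene.

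**Figure D1:**
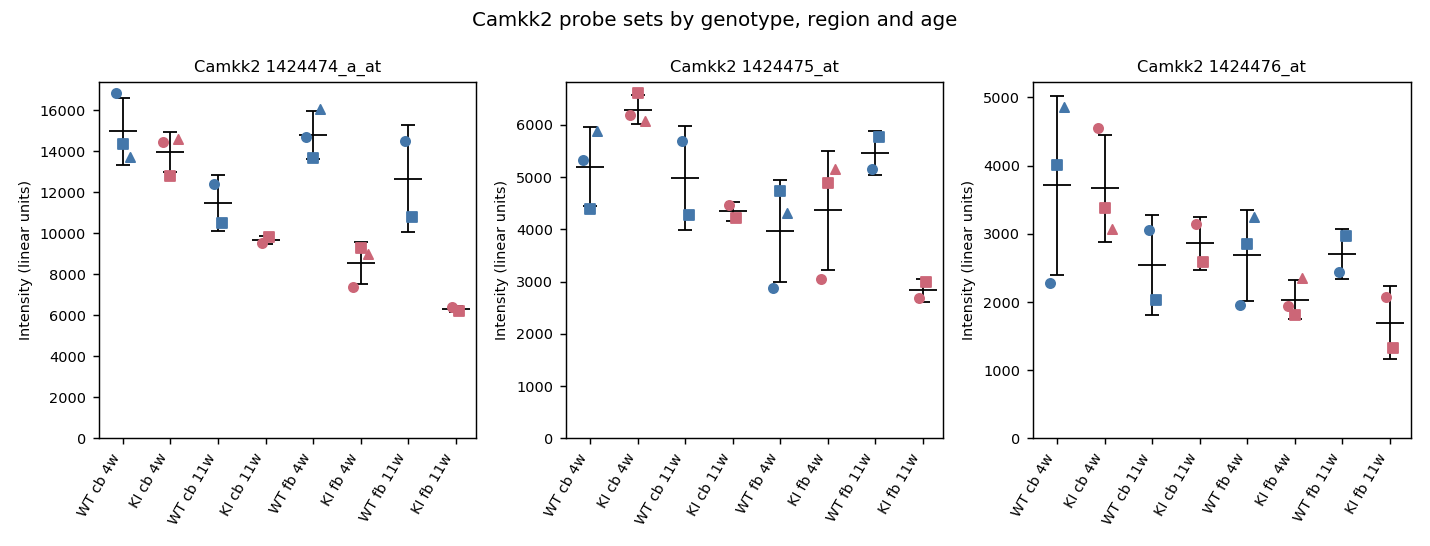
Intensity (linear units) of the 3 Camkk2 probe sets on each array, by genotype (WT wild type, blue; KI knock-in, red), region (cb cerebellum, fb forebrain) and age, with marker shape giving the replicate number and black bars the mean ± SD. In forebrain the 5 knock-in arrays of 1424474_a_at sit between 6223 and 9314 units, below the wild-type arrays at 10814 to 16049, while the other probe sets overlap at 4 weeks.

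Among the kinases that CaMKK2 activates, Camk1d was lower in knock-in forebrain by both probe sets. For 1426389_at the knock-in arrays read 2063, 2828 and 2349 units at 4 weeks and 2641 and 2267 at 11 weeks. The wild-type arrays read 3164, 3518 and 3355 units at 4 weeks and 3991 and 3814 at 11 weeks, above the knock-in arrays throughout. Over both ages the level fell by 0.57 ± 0.12 (adjusted p = 0.00797). The brighter probe set 1452050_at fell by 0.42 ± 0.13 (adjusted p = 0.0401). Its 4-week groups overlapped, at 4849 to 5427 units in knock-in and 4545 to 7605 in wild type. This second call was lost without any of 8 forebrain arrays. Adjusted p was 0.0768, 0.0552 and 0.0567 without knock-in 4-week replicates 1, 2 and 3, and 0.077 and 0.0661 without wild-type 4-week replicates 2 and 3. At 11 weeks it was 0.188 without knock-in replicate 2, and 0.15 and 0.0512 without wild-type replicates 1 and 2. It was also lost after quantile normalization (0.0504), with no filter (0.0663) and with forebrain arrays alone (0.116). For 1452050_at the exact permutation test of genotype within ages gave an unadjusted p of 0.0833.

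Camk1d was the member called for genotype in cerebellum as well. For 1426389_at the knock-in cerebellar arrays read 937, 1218 and 1088 units at 4 weeks and 999 and 735 at 11 weeks. The wild-type arrays read 1196, 1595 and 1533 units at 4 weeks and 1320 and 1323 at 11 weeks. The level fell by 0.51 ± 0.12 over both ages (adjusted p = 0.0314), and 1452050_at had a difference of -0.29 ± 0.13 (adjusted p = 0.189). The forebrain and cerebellar differences of 1426389_at were 0.06 apart, with a 95% interval of the forebrain minus the cerebellar value from -0.42 to 0.29. The cerebellar call was lost without 7 arrays. At 4 weeks adjusted p was 0.064 and 0.0545 without knock-in replicates 1 and 3, and 0.062 and 0.0659 without wild-type replicates 2 and 3. At 11 weeks it was 0.135 without knock-in replicate 2, and 0.0787 and 0.0877 without wild-type replicates 1 and 2. With no filter it was 0.0558, and with cerebellar arrays alone 0.0704.

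Camk1, which encodes CaM kinase I alpha, did not pass the genotype test in either region. Its probe set 1417604_at ranged from 1598 to 2531 units over the 10 forebrain arrays with a median of 1936. The forebrain difference was 0.13 ± 0.12 (95% interval -0.13 to 0.38) for this probe set and -0.08 ± 0.09 (-0.26 to 0.10) for 1417605_s_at, a name type used for probes shared by transcripts of several genes. In cerebellum the 2 differences were 0.19 ± 0.12 and -0.04 ± 0.09. These intervals reach no further below 0 than -0.26, while Camk1d had forebrain differences of -0.57 for 1426389_at and -0.42 for 1452050_at. The 95% interval of 1452050_at, -0.68 to -0.15, overlaps that of Camk1 1417605_s_at. The genes were not compared by a test.

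Camk4 was called lower in knock-in forebrain by 1 of its 3 probe sets, 1426167_a_at, and higher by a dim one. In forebrain 1426167_a_at read 1059, 1530 and 1323 units in knock-in and 1820, 1183 and 1452 in wild type at 4 weeks, which overlap. At 11 weeks it read 716 and 766 units in knock-in and 1372 and 1541 in wild type, which do not. Over both ages it fell by 0.57 ± 0.15 (adjusted p = 0.0236). Probe set 1421941_at had a similar difference of -0.58 ± 0.22 that did not pass (adjusted p = 0.0814). The call of 1426167_a_at was lost without knock-in 4-week replicate 1 (adjusted p = 0.0513) or any of the 4 arrays at 11 weeks. Those were knock-in replicates 1 and 2 (0.0648 and 0.0661) and wild-type replicates 1 and 2 (0.0559 and 0.0681). It was also lost with the replicate number as a block (0.0791), and the exact permutation test of genotype within ages gave an unadjusted p of 0.0833. At 11 weeks alone its difference of -0.96 missed the threshold (adjusted p = 0.0689) and passed after quantile normalization (-1.06, 0.0452), after cyclic loess (-1.02, 0.0476) and without knock-in cerebellar 4-week replicate 2 (0.0495).

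The dim Camk4 probe set 1452572_at had higher values in knock-in arrays, most of them near or below the filter limit. In forebrain it read 1152, 684 and 680 units in knock-in and 587, 596 and 552 in wild type at 4 weeks. At 11 weeks it read 781 and 1329 units in knock-in and 566 and 719 in wild type. Cerebellar values were 714, 654 and 865 against 471, 557 and 420 at 4 weeks, and 586 and 761 against 455 and 434 at 11 weeks. Knock-in lay above wild type without overlap in all 4 combinations of region and age, as did 1.54% of the kept probe sets. Of the 6 arrays above the limit 5 were knock-in and 1 was wild type, so the probe set passed the filter through the group where it is high. That count, the absence of overlap and the fits below are therefore given as values and not read as support for a higher level. The limit itself was higher on every knock-in array than on any wild-type array, and the part of this in these values was not tested. With wild-type values raised to the limit of their array and knock-in values as measured, knock-in was 1.39-fold higher in forebrain. There 3 of 5 knock-in and 1 of 5 wild-type arrays were above the limit. The corresponding value in cerebellum, with 2 and 0 of 5 above it, was 1.09-fold. Neither is a lower bound, since knock-in values below the limit were kept as measured. The fit of the values as they stand gave 0.57 ± 0.17 in forebrain (adjusted p = 0.037) and 0.59 ± 0.17 in cerebellum (adjusted p = 0.0644). The cerebellar value passed with cerebellar arrays alone (0.0454) and without knock-in forebrain 4-week replicate 1 (0.04). After quantile normalization the forebrain difference was 0.42 (adjusted p = 0.122) and after cyclic loess 0.36 (0.142), so the call did not hold under either scaling. It was also lost with no filter (0.0629), with forebrain arrays alone (0.0922), with the replicate number as a block (0.0503) and without knock-in forebrain 4-week replicate 1 (0.0697), wild-type 4-week replicates 2 and 3 (0.0576 and 0.0633), knock-in 11-week replicate 2 (0.189) and wild-type 11-week replicate 1 (0.145).

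**Figure D2:**
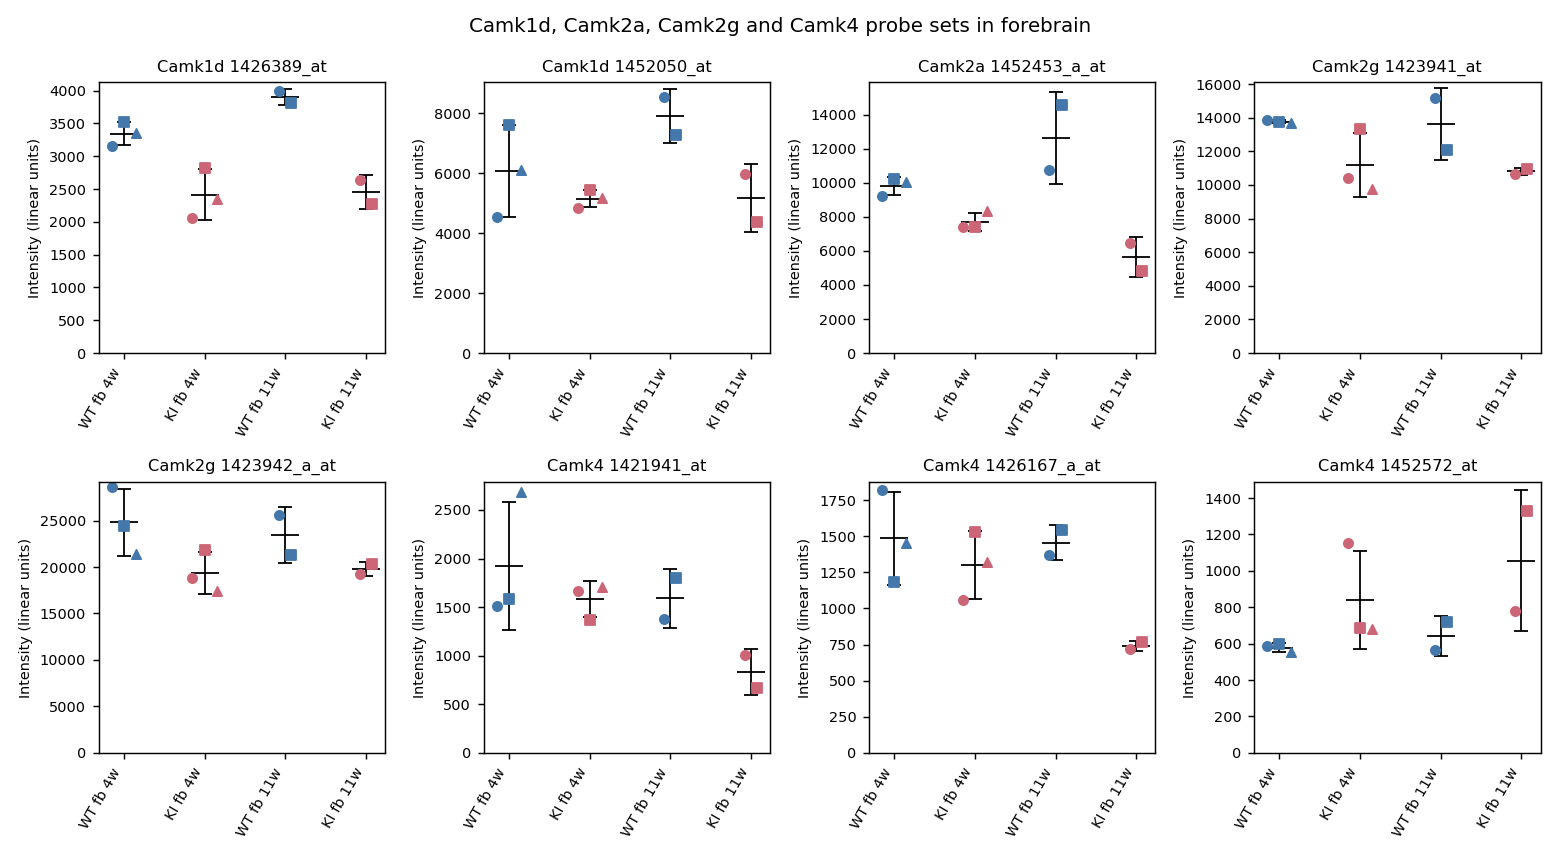
Intensity (linear units) on each forebrain array of the 8 probe sets of Camk1d, Camk2a, Camk2g and Camk4, for wild type (WT, blue) and knock-in (KI, red) at 4 and 11 weeks, with marker shape giving the replicate number and black bars the mean ± SD. Knock-in arrays of Camk2a and Camk1d 1426389_at sit below wild type at both ages, and Camk4 1452572_at, whose values lie near the filter limit, has knock-in above wild type.

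Of the CaM kinase II subunits, Camk2a showed the widest gap in forebrain. Knock-in forebrain arrays read 7406, 7384 and 8321 units at 4 weeks and 6491 and 4828 at 11 weeks. Wild-type arrays read 9218, 10239 and 10029 units at 4 weeks and 10745 and 14567 at 11 weeks. The groups did not overlap at either age. In the fit of all 20 arrays the difference was -0.75 ± 0.78 and did not pass (adjusted p = 0.549). Its cerebellar values, 13.8 to 385 units and all below the filter limit, share that fit's error. In a limma fit of the 10 forebrain arrays alone Camk2a fell by 0.75 ± 0.12 (adjusted p = 0.0124). By age that fit gave -0.35 ± 0.15 at 4 weeks (adjusted p = 0.205) and -1.16 ± 0.19 at 11 weeks (adjusted p = 0.0549). A two-sided exact permutation test of genotype within ages, run after these values were seen, gave p = 0.0167, the smallest its 120 arrangements allow. Groups without overlap at both ages always give this value, so it adds nothing to that observation.

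The Camk2g subunit gene had lower knock-in forebrain values that did not pass. Probe set 1423941_at read 10419, 13361 and 9754 units in knock-in and 13894, 13729 and 13688 in wild type at 4 weeks. At 11 weeks it read 10665 and 10948 units in knock-in and 15152 and 12104 in wild type. No array of the genotypes overlapped within an age, but the difference of -0.32 ± 0.12 missed the threshold (adjusted p = 0.0863) and passed without knock-in 4-week replicate 2 (-0.39, adjusted p = 0.0489). The brighter 1423942_a_at had a difference of -0.30 ± 0.11 (adjusted p = 0.0805), with 17430 to 21823 units in knock-in and 21403 to 28570 in wild type at 4 weeks. In cerebellum the differences were -0.02 ± 0.12 and -0.05 ± 0.11.

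Camk2b and Camk2d had no called genotype difference in either region. In forebrain at 4 weeks Camk2b 1448676_at averaged 10057 ± 995 units in knock-in arrays and 11314 ± 2302 in wild-type arrays (SD, n = 3 each). Its forebrain difference over both ages was -0.09 ± 0.10, with an interval of -0.30 to 0.13, and its cerebellar one -0.14 ± 0.10 (-0.35 to 0.08). Camk2d 1422659_at had a forebrain difference of -0.02 ± 0.10 (-0.25 to 0.20) and a cerebellar one of 0.09 ± 0.10. The brighter Camk2d probe set 1427763_a_at had differences of -0.23 ± 0.19 in forebrain and -0.33 ± 0.19 in cerebellum. It was also the more variable of the pair, with wild-type cerebellar arrays at 4003 and 8067 units at 11 weeks.

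Counted over all 16 probe sets, 5 were called in forebrain over both ages, against a background of 13.5% of the kept probe sets. Of these, 4 were lower (background 5.13%) and 1 was higher (background 8.36%). The called probe sets belong to Camkk2, Camk1d (both) and Camk4 (1 lower and the dim 1 higher). The dim one passed the filter through knock-in arrays, so its higher call is counted here but not read as a result. In all, 14 of 16 differences were below 0, and their median was -0.36, where the median over all kept probe sets was 0.04. The 16 probe sets come from 8 genes, so they are not independent. The members were also chosen with earlier results of these data known. Counts and medians of members are therefore descriptive, here and by age. The count of 5 calls fell to 2 without knock-in forebrain 4-week replicate 1, knock-in 11-week replicate 2 or wild-type 11-week replicate 1. It fell to 3 without wild-type 4-week replicate 2 or 3 or wild-type 11-week replicate 2, and to 3 after quantile normalization or with no filter. The split of all calls depended on the scaling. Of all called probe sets, 62% were higher in knock-in forebrain with the deposited scaling (1307 higher, 801 lower), 47.8% after quantile normalization (824 and 900) and 39.3% after cyclic loess (697 and 1076). The 4 lower members stayed below 0 under each scaling.

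By age, 1 member was called in forebrain at 4 weeks (background 7.37%, for lower calls 2.42%) and 1 at 11 weeks (background 0.864%, for lower calls 0.48%), in each case Camkk2 1424474_a_at. The members' median difference was -0.22 at 4 weeks and -0.48 at 11 weeks, with 4 and 7 of 16 at an unadjusted p under 0.05, against 25.8% and 15.6% of the kept probe sets. In cerebellum 1 member was called over both ages (background 3.35%, for lower calls 1.1%), and their median difference was -0.09 against 0.02 for all kept probe sets. At 4 weeks (background 0.0512%) and 11 weeks (background 0.346%) limma called 0 in cerebellum, with 3 of 16 at an unadjusted p under 0.05 at each age, against 13.3% and 14.8% of the kept probe sets. In cerebellum 1 member, Camk1d 1452050_at, was below wild type without overlap at both ages (background 3.87%) and 1, Camk4 1452572_at, above it (background 5.78%). The difference between regions in the genotype effect called 0 members (background 0.282%), with 1 at an unadjusted p under 0.05 (9.14% of the kept probe sets). The change of the genotype effect between ages called 0 in cerebellum (background 0.0256%) and 0 in forebrain (background 0%), with 1 and 2 members at an unadjusted p under 0.05 (5.77% and 6.21% of the kept probe sets). In the exact permutation tests, 5 members of 16 in forebrain and 2 in cerebellum reached the smallest possible p of 0.0167, which over the 32 tests adjusts to 0.0762. These are the members without overlap at both ages, which always gives this p, so the tests add nothing to those counts. The background of such probe sets was 6.29% below and 8.47% above wild type in forebrain, and 3.87% and 5.78% in cerebellum.

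**Figure D3:**
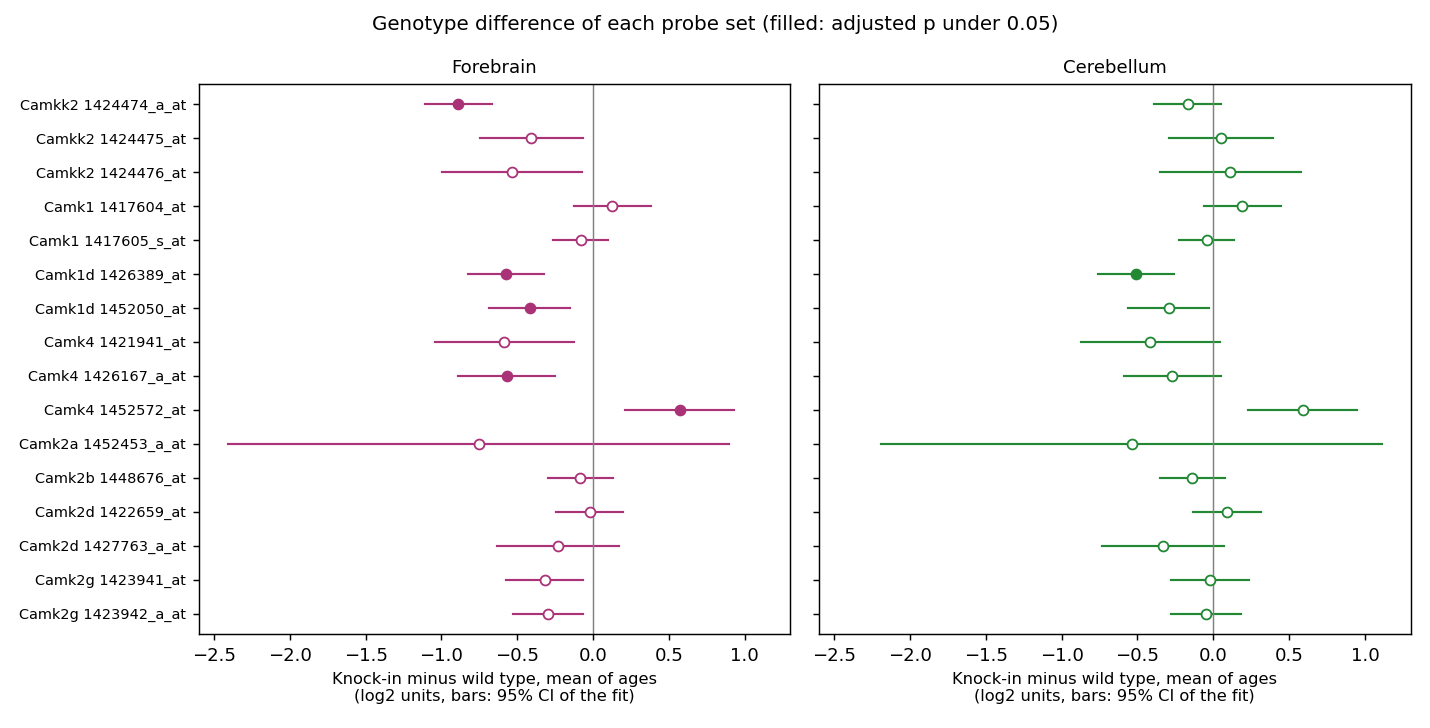
Knock-in minus wild-type difference of each of the 16 probe sets, mean of both ages, in forebrain and cerebellum (log2 units, with 95% confidence intervals of the limma fit of 20 arrays; filled points were called at an adjusted p under 0.05). In forebrain 14 of 16 points lie below 0 and 5 are filled, and in cerebellum the filled point is Camk1d 1426389_at.

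More members were called for region than for genotype, as was a larger share of all kept probe sets. In the cerebellum minus forebrain comparison, over all genotype and age groups, 14 of 16 probe sets were called (background 59.7%). Of these, 6 were higher in cerebellum (background 32.5%) and 8 were higher in forebrain (background 27.2%). Camk2a was at least 12.4-fold higher in forebrain, taking the filter limit of each array in place of cerebellar values below it. Its probe set passed the filter through its forebrain arrays alone, so its call is counted here but not read as a result. Camk1d was higher in forebrain by 1.35 ± 0.08 and 1.18 ± 0.09 log2 units for its probe sets, Camk2g by 0.81 ± 0.09 and 1.05 ± 0.08, and Camk1 by 0.46 ± 0.08 and 0.60 ± 0.06. Camk4 was higher in cerebellum by 1.46 ± 0.15 for 1421941_at and 1.19 ± 0.11 for 1426167_a_at. Its dim probe set 1452572_at, above the limit on 2 of 10 cerebellar and 4 of 10 forebrain arrays, was called higher in forebrain (adjusted p = 0.0131). With cerebellar values raised to the limit and forebrain values as measured, it was 1.08-fold higher in forebrain. This is no lower bound, since most forebrain values were below the limit too. The 3 Camkk2 probe sets were higher in cerebellum by 0.30 ± 0.07, 0.36 ± 0.11 and 0.48 ± 0.15 (adjusted p = 0.0022, 0.0121 and 0.0135). This regional average includes the lower knock-in forebrain: among wild-type groups at 4 weeks, 1424474_a_at had 14981 ± 1642 units in cerebellum and 14807 ± 1189 in forebrain (SD, n = 3). At 11 weeks the wild-type means of all 3 probe sets were higher in forebrain, 12661 ± 2611 against 11464 ± 1364 units for 1424474_a_at, 5457 ± 427 against 4982 ± 990 for 1424475_at and 2705 ± 369 against 2543 ± 729 for 1424476_at (SD, n = 2 each). The arrays of the regions overlapped for each. Camk2b was at -0.09 ± 0.07 (adjusted p = 0.292), with 8275 to 10647 units in cerebellum and 8790 to 13969 in forebrain. Camk2d was higher in cerebellum by 0.28 ± 0.07 for 1422659_at (adjusted p = 0.00344) and had a difference of 0.22 ± 0.13 for 1427763_a_at that did not pass.

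**Figure D4:**
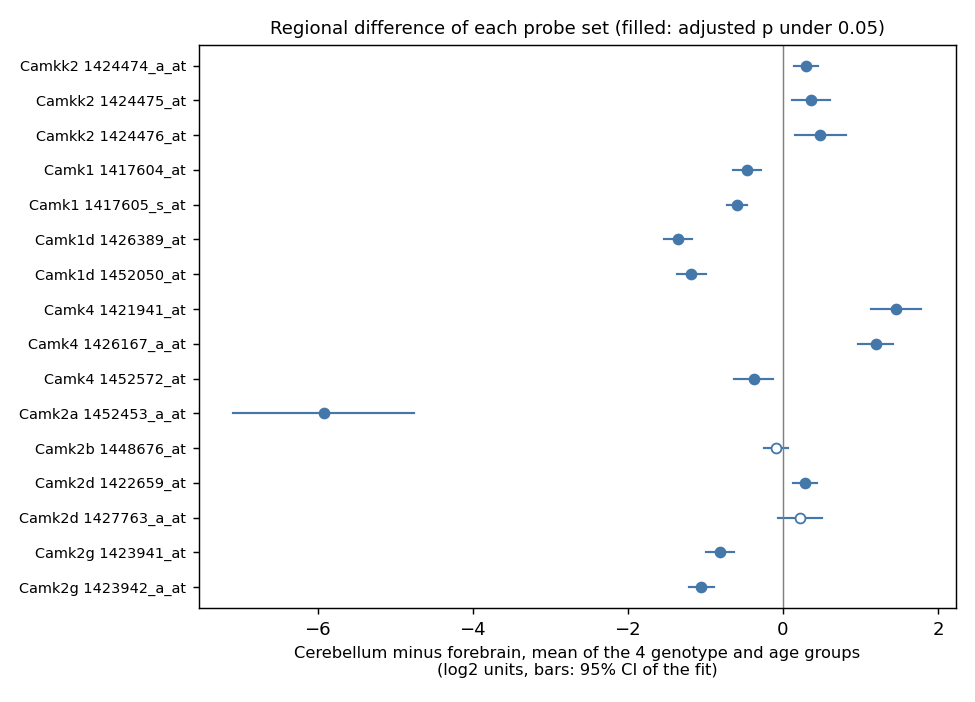
Cerebellum minus forebrain difference of each of the 16 probe sets, mean of the 4 genotype and age groups (log2 units, with 95% confidence intervals of the limma fit; filled points were called at an adjusted p under 0.05). Camk2a lies at -5.92, which is no measured fold since its cerebellar values are below the filter limit. Camk1d, Camk2g and Camk1 lie below 0, and Camkk2 and the brighter Camk4 probe sets lie above 0.

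The order of the group means shows where genotype, age and region meet. For Camkk2 1424474_a_at the highest means were those of wild-type cerebellum and wild-type forebrain at 4 weeks, whose arrays overlap. The lowest were knock-in forebrain at 4 weeks (8573 ± 1029 units; SD, n = 3) and at 11 weeks (6323 ± 142; SD, n = 2), each clear of its neighbours. For Camk2a the 4 forebrain groups followed each other without overlap, from wild type at 11 weeks (12656 ± 2703 units) through wild type and knock-in at 4 weeks to knock-in at 11 weeks (5659 ± 1176). For Camk1d 1426389_at every forebrain group stood above every cerebellar group, and wild type stood above knock-in within forebrain. For Camk2b neighbouring groups overlapped at all but the last step of the order.

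Members were called for age in cerebellum alone. From 4 to 11 weeks in cerebellum, over both genotypes, 2 of 16 were called, both lower (background for lower calls 1.27%, for all calls 1.75%). Camk4 1421941_at fell by 1.00 ± 0.22 (adjusted p = 0.029), from 5018 ± 828 to 2314 ± 807 units in knock-in and from 6174 ± 1750 to 3356 ± 726 in wild type. Camkk2 1424474_a_at fell by 0.46 ± 0.10 (adjusted p = 0.0363). The other Camk4 probe sets did not pass, with -0.43 ± 0.15 for 1426167_a_at and -0.12 ± 0.17 for 1452572_at (adjusted p = 0.17 and 0.786). Nor did the other Camkk2 probe sets, with -0.30 ± 0.16 for 1424475_at and -0.42 ± 0.22 for 1424476_at (0.396 and 0.372). The Camk4 call was lost without knock-in cerebellar 4-week replicate 3 (adjusted p = 0.0698), wild-type 4-week replicates 2 and 3 (0.0555 and 0.0753), knock-in 11-week replicate 2 (0.175) or wild-type 11-week replicate 2 (0.144). The Camkk2 call was lost without knock-in cerebellar 4-week replicates 1 and 3 (0.0624 and 0.0824), wild-type 4-week replicates 1, 2 and 3 (0.0752, 0.0501 and 0.0509), knock-in 11-week replicates 1 and 2 (0.0774 and 0.125) or wild-type 11-week replicate 2 (0.174). Without knock-in forebrain 11-week replicate 1 or 2 it lay at the threshold (0.0503 and 0.05). With no filter, and with cerebellar arrays alone, neither was called. In forebrain limma called 0 members for age (background 0.096%), with 6 at an unadjusted p under 0.05 (11.7% of the kept probe sets). Lower at 11 weeks were Camkk2 1424474_a_at at -0.33 ± 0.10 (adjusted p = 0.223) and Camk4 1421941_at at -0.58 ± 0.22 (0.321). So were Camk4 1426167_a_at at -0.40 ± 0.15 (0.332) and Camk2b at -0.22 ± 0.10 (0.415). Higher were Camk2d 1422659_at at 0.28 ± 0.10 (0.319) and Camk1 1417604_at at 0.25 ± 0.12 (0.427).

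**Figure D5:**
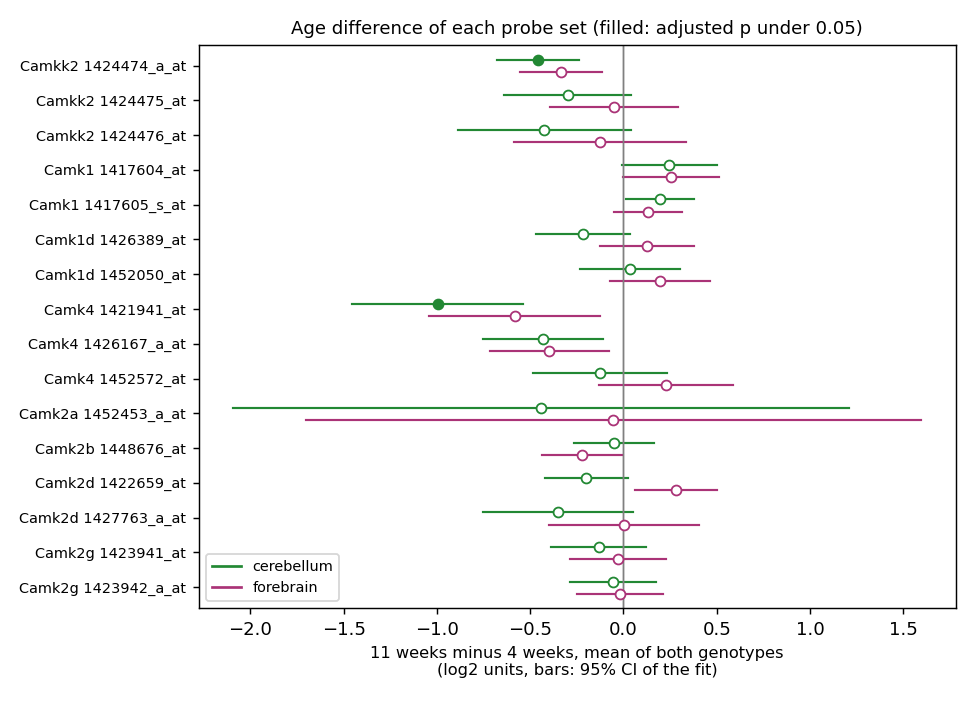
Difference between 11 and 4 weeks of each of the 16 probe sets, mean of both genotypes, in cerebellum (green) and forebrain (purple), in log2 units with 95% confidence intervals of the limma fit; filled points were called at an adjusted p under 0.05. The filled points are Camk4 1421941_at and Camkk2 1424474_a_at, both below 0 in cerebellum.

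Other genes of the pathway were counted from 5 lists, with each gene represented by its probe set of highest mean. Over all 9105 genes so represented, the knock-in forebrain comparison over both ages called 860 higher and 440 lower (9.45% and 4.83%), with a median difference of 0.05. The cerebellar one called 236 higher and 103 lower (2.59% and 1.13%). Of 6 measured genes for calmodulin-binding regulators, limma called 0 higher and 1 lower, with a median of 0.04. That gene was Pcp4, which modulates calcium binding by calmodulin and fell by 0.50 ± 0.10 (adjusted p = 0.00667). Of 13 other calmodulin-regulated kinases and relatives, 2 were higher and 2 lower, with a median of 0.07. Pnck, also known as CaM kinase I beta, rose by 0.50 ± 0.09 (adjusted p = 0.0039) and Mknk1 by 0.30 ± 0.09 (0.0334). Mylk, the myosin light chain kinase, fell by 0.83 ± 0.15 (adjusted p = 0.00357) and Dclk1, a doublecortin-like kinase, by 0.46 ± 0.12 (0.0192).

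Of 10 measured genes from a list of kinase inhibitors, phosphatases and their regulators, 0 were higher and 2 lower, with a median of -0.07. Camk2n1, Camk2n2, Ppm1f and Ppm1e of this list had no kept probe set. Ppp3ca, the calcineurin catalytic subunit, fell by 0.26 ± 0.07 (adjusted p = 0.0237), and Rcan2, a calcineurin regulator, by 0.34 ± 0.09 (0.0249). Of 14 targets of the cascade, 0 were higher and 2 lower, with a median of -0.03. Prkag2, a subunit of the AMP-activated kinase, fell by 0.38 ± 0.09 (adjusted p = 0.0159) and Srf, a transcription factor of activity-regulated genes, by 0.51 ± 0.14 (0.0274). Of 13 postsynaptic partners and substrates of CaM kinase II, 0 were higher and 3 lower, with a median of -0.11. They were Grin2a, an NMDA receptor subunit, at -0.57 ± 0.11 (adjusted p = 0.00649), Kalrn at -0.56 ± 0.16 (0.0299) and Homer1, a scaffold protein, at -0.58 ± 0.16 (0.0308). In cerebellum over both ages limma called 0 genes of these 5 lists, against 3.72% of all genes represented.

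In bulk tissue, fewer cells of a type and less RNA per cell cannot be told apart, so marker genes of the cell types present were read beside these results. Over all genes represented, 9.45% were called higher and 4.83% lower in knock-in forebrain over both ages. There 0 of 8 measured pyramidal neuron markers were called, with a median difference of -0.28. Their summed level was 70714 to 76858 units in knock-in and 70160 to 104480 in wild type at 4 weeks, and 64542 to 73607 against 79874 to 81723 at 11 weeks. Of 9 interneuron markers 2 were lower, Gad1 at -0.62 ± 0.09 (adjusted p = 0.00137) and Vip at -0.72 ± 0.20 (0.0286). Their sum was 71701 to 78296 units in knock-in against 82464 to 101948 in wild type at 4 weeks, and 65042 to 74427 against 80940 to 87531 at 11 weeks. The list of Purkinje cell markers, many of which forebrain neurons also express, had 5 of 11 genes lower and 1 higher in knock-in forebrain, with a median of -0.11. Lower were Rgs8 (-0.69 ± 0.08, adjusted p = 0.000199), Gad1, Pcp4, Cacna1g (-0.44 ± 0.09, 0.0102) and Plcb4 (-0.94 ± 0.22, 0.0151), and higher was Slc1a6, a glutamate transporter gene (0.49 ± 0.10, 0.00699). Slc1a6 lay near the filter limit at 4 weeks and overlapped, at 683 to 884 units in knock-in and 635 to 759 in wild type. At 11 weeks it read 1086 to 1278 against 625 to 734. The sum of this list was 54803 to 62331 units in knock-in against 73830 to 82400 in wild type at 4 weeks, and 52340 to 52368 against 69477 to 69551 at 11 weeks, without overlap. Of 8 granule cell markers Grin2c was lower (-0.41 ± 0.12, adjusted p = 0.0329), and Cbln3 was called higher (0.0296) with all its forebrain values below the filter limit. Their sum was 9019 to 9448 units against 9441 to 10763 at 4 weeks and 9064 to 9692 against 9087 to 10060 at 11 weeks. The part of these markers in the Camkk2, Camk1d, Camk2a and Camk4 results was not tested.

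The counts of glial and striatal markers in forebrain stand beside 14.3% of all genes represented, called there over both ages. Of 9 microglial markers 1 was higher in knock-in forebrain, Laptm5 at 0.57 ± 0.10 (adjusted p = 0.00306), with a summed level of 50149 to 56656 units against 42007 to 46499 at 4 weeks and 43057 to 44988 against 43817 to 46101 at 11 weeks. Tmem119, another of them, was called at 4 weeks alone (0.46 ± 0.12, adjusted p = 0.0334). Of 9 astrocyte markers 1 was lower (Aqp4, -0.36 ± 0.10, adjusted p = 0.0334), of 8 oligodendrocyte markers 0 were called, and of 5 striatal markers 1 was higher (Rgs9, 0.37 ± 0.10, adjusted p = 0.0323). In cerebellum, where Camk1d was called, 3 of 11 Purkinje cell markers were lower, Cacna1g (-0.51 ± 0.09, adjusted p = 0.0125), Rgs8 (-0.34 ± 0.08, 0.0335) and Plcb4 (-0.92 ± 0.22, 0.0364), where 1.13% of all genes represented were lower. The summed Purkinje markers were 290965 to 303584 units in knock-in against 329589 to 341634 in wild type at 4 weeks, and 260167 to 292506 against 339723 to 340395 at 11 weeks. Of 8 granule cell markers 0 were called there, and their sum was 186721 to 197593 units against 207092 to 213731 at 4 weeks and 179935 to 182122 against 191840 to 192439 at 11 weeks. Among the other lists in cerebellum Rgs9 was higher (0.70 ± 0.10, adjusted p = 0.00514) and Cck, of the interneuron list, lower (-0.35 ± 0.09, 0.043). Tac1, of the striatal list, was called higher in knock-in cerebellum at 4 weeks (adjusted p = 0.0325) and lower at 11 weeks (0.0381), with 2 of 10 cerebellar arrays above the filter limit. In forebrain at 4 weeks the Gapdh control probes gave a 3′ to 5′ signal ratio of 0.859 ± 0.032 for knock-in and 0.793 ± 0.044 for wild type (SD, n = 3 each). For the actin control at 11 weeks these ratios were 0.996 ± 0.088 and 1.12 ± 0.04 (SD, n = 2 each). The part of any of these in the kinase results was not tested.

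The genes whose pattern over the 10 forebrain arrays was most like that of Camkk2 1424474_a_at, by Pearson r of log2 values among 9104 genes, were R3hdm1 (r = 0.98), Slc6a8 (0.98), Man1a2 (0.98), 0610040J01Rik (0.97) and Parp6 (0.96). All 5 were themselves lower in knock-in forebrain, with differences of -0.72, -0.38, -0.47, -1.61 and -0.70, so these correlations include the genotype difference. The probe set of 0610040J01Rik was dim, with a mean of 454 units, below the lowest filter limit of 606. Over the 10 cerebellar arrays the closest were Nr4a2 (r = 0.94), Mybpc3 (0.93), Vps37b (0.91), Kcnh3 (0.91) and Tmem62 (0.91), and no gene was in both sets. Among the members, the forebrain r with Camkk2 1424474_a_at was 0.82 for Camk2g 1423941_at, 0.80 for Camk1d 1426389_at, 0.78 for Camk4 1426167_a_at and 0.75 for Camk2a, and -0.85 for Camk4 1452572_at. The corresponding cerebellar values were 0.44, 0.41, 0.68, 0.16 and -0.04. The Camkk2 probe sets themselves had an r with it of 0.47 and 0.69 in forebrain and 0.59 and 0.32 in cerebellum. These values describe arrays that share genotype, age and scaling.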

How the data were processed

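The deposited table gives 1 linear intensity per probe set and array, positive values on a scale the authors set. From the values, all 20 arrays share a 2% trimmed mean of 2500.59 to 2500.75. For other processing steps and software, the sources used here give no name. Array medians ran from 979 to 1180 units. Of 22690 rows, 64 array controls were left out. GEO's platform annotation gave 20380 probe sets a symbol of their own, of which 20351 matched RefSeq.

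Intensities were used as log2(intensity + 16), filtered on the 40th percentile of each array on at least 2 arrays, and fitted in limma 3.58.1 (R 4.3.3) with 1 mean per group over all 20 arrays, 12 residual and 3.45 prior degrees of freedom, and Benjamini-Hochberg adjustment over the kept probe sets. The procedure was tested on simulated data. Values for a region average both ages equally. A replicate number that groups share was taken as a name, because the deviations of same-numbered arrays did not correlate above 0.1 in every pair. The arrays differed from each other in every pair. Alternatives were quantile and cyclic loess normalization, offsets of 1 and 64, no filter or a filter at the 50th percentile, arrays of the region only, replicate blocks and leaving out each array. The permutation test within ages was added after the data were seen.

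All member probe sets are described. Of the pathway and marker lists, up to 4 genes a list by p, called in any genotype comparison, are named by rule. Pcp4 and Plcb4 of the Purkinje list were added after their values were seen. Also named are the 5 genes most correlated with Camkk2 in each region. Members and lists were chosen with earlier results of these data known. Some genes, such as Pcp4 and Gad1, stand in more than 1 list.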

Additional observations from a re-analysis of the deposited data

How the results depend on the processing

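Leaving out each array in turn gave 2 to 6 called members in forebrain over both ages (5 with all arrays), 0 to 2 in forebrain at 11 weeks, 0 to 2 in cerebellum over both ages, 0 to 2 for age in cerebellum and 0 to 1 for the regional difference in genotype effect. The forebrain count over both ages was 3 after quantile normalization and 3 with no filter. At 11 weeks the forebrain count of 1 became 2 after quantile normalization, 2 after cyclic loess, 0 with forebrain arrays only and 0 with the replicate number as a block, and at 4 weeks it became 2 after cyclic loess. With no filter, 0 members were called in cerebellum over both ages and 0 for age there, and with cerebellar arrays only 0 for age. The regional difference in genotype effect called 1 member with the filter at the array median and 1 with same-numbered arrays as a random block (consensus correlation 0.06). Apart from the change in the number of probe sets or arrays tested, the cause was not tested. The sign of the smallest Camkk2 probe set pair, 1424475_at minus 1424476_at, turned in cerebellum to 0.027 and 0.11 without knock-in or wild-type 4-week replicate 1, over a range of -0.16 to 0.11, and in forebrain to -0.073 without knock-in 11-week replicate 2, over a range of -0.073 to 0.33. The forebrain pair 1424474_a_at minus 1424475_at, at -0.48, ranged from -0.63 to -0.34 and reached an unadjusted exact p of 0.0167 without wild-type 11-week replicate 2.

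Same-numbered arrays of the genotypes had deviations correlated between -0.10 and 0.05 in 10 pairs, and those of the regions between -0.02 and 0.11 in 10 pairs with 1 over 0.1, so the numbers were not taken to pair them. With the replicate block Camkk2 1424475_at gained a call in forebrain over both ages (adjusted p = 0.0423), the regional difference of Camkk2 1424474_a_at had an adjusted p of 0.171, and calls were lost: Camkk2 1424474_a_at had an adjusted p of 0.0684 in forebrain at 11 weeks, Camk4 1426167_a_at 0.0791 and Camk4 1452572_at 0.0503 over both ages. This block changed no other genotype call of a member. A fixed block gives no value for region or age, arrays of a region no value across regions, and counts with 1 probe set per gene were left out because the number of members differs. With 2 arrays a group at 11 weeks, and with Camk2a below the limit in cerebellum, small differences there are not resolved.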
